A study of Mus musculus with 6 samples.

Results

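Complex I of the respiratory chain was described here through 35 nuclear genes, 35 of 20996 genes measured, in synaptosomes of mouse brain. A gene was included when a probe on the array carried its symbol and was well above background on at least 3 arrays. Every listed gene met this on all 6 arrays, through 47 of its 48 probes in all, and the brightest of them stood for the gene. Total RNA was read on 1-colour Agilent arrays, 3 from knock-in mice and 3 from wild-type mice, with 1 array for each sample. Synaptosomes are nerve terminals that pinch off and reseal when brain is homogenised, and they can carry mitochondria. The sample names and the series design call the first group knock-in, while the genotype field of those samples reads knock-out; the labels name no strain, age, sex or modified gene, and nothing in them ties a sample to an animal. The p-values therefore cover sample-to-sample spread only, possibly technical. The labelled RNA input was 0.2 µg for 5 samples and 0.0 µg for knock-in replicate 1, and the RNA integrity number was 10 for all. The series title concerns FMR1 mRNA and FXTAS, a late-onset movement disorder linked to that gene, at the synapse.

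Complex I, or NADH dehydrogenase, takes electrons from NADH, passes them along a flavin and a chain of iron-sulphur clusters to ubiquinone, and uses the energy to pump protons across the inner mitochondrial membrane. It is shaped like an L, with a matrix arm that holds the redox centres and a membrane arm that holds the pumps. The proton-pumping core is encoded by mitochondrial DNA, whereas the redox core and all accessory subunits are made from nuclear genes and imported. Nerve terminals draw much of their ATP from this chain to refill and recycle synaptic vesicles.

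The arrays differed in ways that touch every result below. Slide 1 held the 3 knock-in arrays and wild-type replicate 3, with processed signals of 823 to 910 at the 75th percentile. Slide 2 held wild-type replicates 1 and 2, at 578 and 580. All values are log2 signals relative to that percentile of the same array. In the order of replicates 1 to 3, used throughout, Fmr1 read 2.08, 2.24 and 2.27 in the knock-in arrays against 1.42, 1.33 and 1.37 in the wild-type arrays (log2 difference 0.82, SE 0.10, limma's adjusted p = 0.198). Of 12 markers of neurons and synapses, 12 were well above background on all arrays, but so were 8 of 8 astrocyte, 9 of 9 oligodendrocyte and 8 of 8 microglia markers, so RNA of other cells was present. Less RNA of a cell type and less RNA per cell cannot be told apart in such samples.

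Complex I transcripts read slightly less in knock-in than in wild type, and no member reached significance. The mean of the knock-in arrays was the lower one for 33 of 35 genes, against 59.1% of all genes, and the median log2 difference was -0.14, against -0.05 over all genes. The differences ran from -0.29 for Ndufs7 to 0.16 for Ndufa10, which are knock-in levels of 0.820 and 1.12 times wild type. None of the 35 passed limma's adjusted p of 0.05, as 0.00953% of all genes did, and 0 had an unadjusted p under 0.05, against 10.9% of all genes. The 3 knock-in arrays lay wholly below the 3 wild-type arrays for 12 members, or 34.3%, where 12.4% of all genes did so, and wholly above for 0, against 7.86%. Complex I probes are bright, and in this processing bright genes as a whole read low in knock-in. Among the 3619 genes at least as bright as the dimmest member, 75.5% had the lower mean in knock-in, the median difference was -0.09, and 17.2% lay wholly below wild type.

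How many members read lower differed between processings. Scaling by the median of detected probes left 33 lower and 11 wholly below, where 58.7% and 12.2% of all genes were. With quantile normalization 23 were lower and 12 higher (65.7% lower, against 54.1% of all genes and 54.3% of the bright ones). The median was -0.04, against -0.01 over the bright genes. Wholly below lay 10 members, or 28.6%, against 10.2% of all genes and 7.46% of the bright ones. The values the authors deposited rank spots as the raw signal without background subtraction does. In them 22 were lower and 13 higher (62.9% lower, against 52.1% of all genes and 48.1% of the bright ones). The median was -0.01, against 0.01 over the bright genes. Of the members 4, or 11.4%, lay wholly below wild type, against 9.59% of all genes and 6.05% of the bright ones. The members' share wholly below there is near that of all genes.

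**Figure D1:**
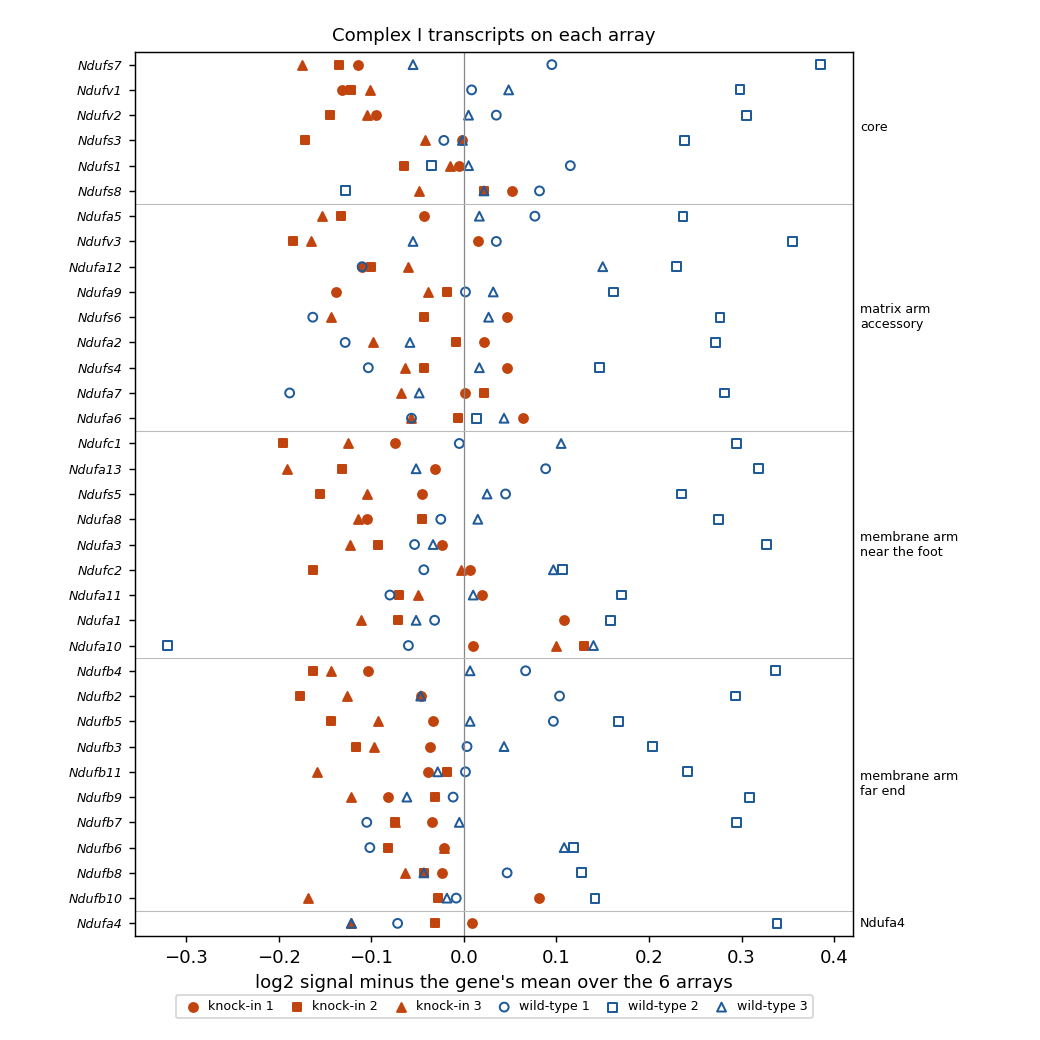
Each row is a complex I gene and each point is 1 array, plotted as its log2 signal minus the mean of that gene over the 6 arrays, with knock-in filled and wild type open. Wild-type replicate 2 (open squares) is the highest array for 31 of the 35 genes, while the other arrays lie close together.

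Wild-type replicate 2 stood apart for these genes. It was the highest of the 6 arrays for 31 of 35 members, against 38.4% of all genes and 58% of the bright ones, and the lowest for 2. The median deviation of the members from their 6-array means was 0.24 on that array, -0.01 and 0.01 on wild-type replicates 1 and 3, and -0.02, -0.08 and -0.10 on the knock-in arrays. Without it the median difference was -0.06, against -0.02 over all genes and -0.04 over the bright ones. Then 27 of 35 members, or 77.1%, had the lower mean in knock-in, against 54.9% of all genes and 63.1% of the bright ones. Without that array 13 members, or 37.1%, lay wholly below wild type, against 15.7% of all genes and 19.3% of the bright ones. A gene wholly below on 6 arrays stays so when any array is left out, so this count could not fall under 12. On slide 1 alone, where the knock-in arrays face wild-type replicate 3 only, the median difference was -0.07. The median was -0.03 over all genes and -0.06 over the bright ones. There 18 of 35 members, or 51.4%, read lower in all 3 knock-in arrays. The shares were 36.3% of all genes and 46.5% of the bright ones.

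Oligodendrocyte markers went the other way on the same array. The median deviation of the 9 markers was -0.48 in wild-type replicate 2 and between -0.05 and 0.31 on the other 5, and their summed linear signal, in multiples of the 75th percentile, ran from 212 to 284 in knock-in and from 177 to 254 in wild type. Their 9 differences were all above 0, with a median of 0.27 and no marker separating the groups. Neuronal and synaptic markers summed to 749 to 797 in knock-in and 749 to 871 in wild type, with a median difference of 0.00 over 12 markers. All 9 striatal markers measured had the higher mean in knock-in, with a median difference of 0.70, overlapping groups and sums of 56.9 to 310 against 50.5 to 220. Their median deviations were 1.78, 0.32 and -1.05 on the knock-in arrays and 1.43, -1.23 and -1.22 on the wild-type arrays. Both replicate 1 arrays were thus the highest. Without knock-in replicate 1 the median difference was 0.11, with 7 markers higher and 2 lower. Of 6 endothelial markers 5 had the lower mean, with a median of -0.14 and a median deviation that was highest on wild-type replicate 2, at 0.26; Cldn5 lay wholly below by -0.99 (SE 0.30, unadjusted p = 0.0144 and adjusted p = 0.413 by limma). Their sums were 10.6 to 11.4 in knock-in and 11.1 to 14.2 in wild type. Of 8 astrocyte markers 5 had the lower mean (median -0.12, sums of 94.9 to 101 against 99.7 to 110), and Gfap lay wholly above by 0.75 and Slc1a3 by 0.14. Of 8 microglia markers 6 had the higher mean (median 0.12); C1qa and Tmem119 lay wholly above by 0.32 and 0.20, and Cx3cr1 wholly below by -0.26. Of 5 choroid plexus markers 4 had the higher mean (median 0.80), with overlapping groups. Without knock-in replicate 1 the choroid plexus median was -0.09, with 3 lower and 2 higher. Of these 5 markers, 3 were well above background on all arrays. Whether cell or region content has a part in the complex I values was not tested.

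The members' promoters were searched for letters bound by factors known to drive respiratory genes. RefSeq windows of 250 bases before to 50 after the annotated start (build GRCm38.p6) were on hand for 32 of the 35 genes, 34 windows in all. Both strands were searched. GCGCA followed by any base and GCGC, a form of the site of nuclear respiratory factor 1, lay in 8 of 34 windows (23.5%), against 4.6% of all 32851 windows. AANATGGCG, a form of the YY1 site, lay in 7 (20.6%), against 2.38%. CCGGAAG, a form of the ETS site bound by GABPA, lay in 4 (11.8%), against 8.86%, and TATAAA in 5 (14.7%), against 13.6%. The first motif was present in 4 of the 12 members that lay wholly below wild type (Ndufa5, Ndufa8, Ndufb4 and Ndufs5) and in 3 of the 20 others with a window (Ndufa6, Ndufa11 and Ndufs6). The second was present in 3 of the 12 (Ndufa9, Ndufc1 and Ndufs7) and 4 of the 20 (Ndufa7, Ndufb11, Ndufs4 and Ndufs6). A match is a stretch of letters and no evidence of binding. The stretches below show the best-filled promoter, Ndufb4, with its 3 matches, and then the other wholly lower members with either of the first 2 motifs, each 5′ to 3′ on the strand of the gene with the match in capitals.
Ndufb4, match starting 191 bases before the start (chr16:37654540-37654569, minus strand): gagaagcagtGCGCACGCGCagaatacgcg
Ndufb4, match starting 79 bases before the start (chr16:37654428-37654457, minus strand): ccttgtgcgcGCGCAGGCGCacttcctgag
Ndufb4, match starting 22 bases before the start (chr16:37654371-37654400, minus strand): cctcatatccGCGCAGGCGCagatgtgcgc
Ndufs5, match starting 98 bases before the start (chr4:123718265-123718294, minus strand): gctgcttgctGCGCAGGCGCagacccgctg
Ndufa5, match starting 26 or 190 bases before its 2 annotated starts (chr6:24527697-24527726, minus strand): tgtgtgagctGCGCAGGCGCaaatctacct
Ndufa8, match starting 30 bases before the start (chr2:36049349-36049378, minus strand): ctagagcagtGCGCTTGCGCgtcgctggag
Ndufc1, match starting 22 bases after the start (chr3:51408915-51408943, minus strand): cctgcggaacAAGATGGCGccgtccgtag
Ndufs7, match starting 24 bases after the start (chr10:80249463-80249491, plus strand): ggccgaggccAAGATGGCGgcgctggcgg
Ndufa9, match starting 29 bases after the start (chr6:126849097-126849125, minus strand): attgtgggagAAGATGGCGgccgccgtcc
The same 10 letters GCGCAGGCGC stand in Ndufs5, Ndufa5 and 2 of the 3 Ndufb4 sites, while Ndufa8 holds the motif on the opposite strand. In Ndufc1, Ndufs7 and Ndufa9 the YY1-type match lies just inside the transcript.

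The redox core was measured through 6 genes, of which 5 had the lower mean in knock-in, with a median difference of -0.19 (-0.11 without wild-type replicate 2). Ndufv1, which binds NADH and the flavin, read 6.26, 6.27 and 6.29 in knock-in against 6.40, 6.69 and 6.44 in wild type (probe at chr19:4007508-4007567 of mm9). The knock-in arrays were nearly equal and all below wild type, a difference of -0.23 (SE 0.11, limma's adjusted p = 0.490). Ndufv2, its partner with an iron-sulphur cluster, read 5.11, 5.06 and 5.10 against 5.24, 5.51 and 5.21 (chr17:66428794-66428853). It had the same difference of -0.23 (SE 0.12), again without overlap. Ndufs7, which carries the last cluster before ubiquinone, read 6.12, 6.10 and 6.06 against 6.33, 6.62 and 6.18 (chr10:79719478-79719537). Its difference of -0.29 (SE 0.13, limma's adjusted p = 0.482) was the lowest of all members, and -0.09 when set against wild-type replicate 3 alone. Ndufs8, another cluster-bearing subunit, read 3.47, 3.44 and 3.37 against 3.50, 3.29 and 3.44 (chr19:3911177-3911236), and the groups overlapped (difference 0.02, 95% interval -0.22 to 0.26). Wild-type replicate 2, the highest array for most members, was the lowest for Ndufs8. Ndufs1, the largest subunit, and Ndufs3, part of the module that binds ubiquinone, differed by -0.06 and -0.14, both with overlapping groups.

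Of the 9 accessory genes of the matrix arm, 9 had the lower mean in knock-in in the reported processing, but only 4 did with quantile normalization and 4 without wild-type replicate 2; the median difference was -0.09. Ndufa5, whose promoter stretch is printed above, read 6.16, 6.07 and 6.05 in knock-in against 6.28, 6.44 and 6.22 in wild type (chr6:24468666-24468725). The groups were separate, with a difference of -0.22 (SE 0.10, limma's adjusted p = 0.486). Its other probe, nearer the start of the transcript, overlapped between groups and differed by -0.04. Ndufa9, which joins the matrix arm to the membrane arm, read 4.43, 4.55 and 4.53 against 4.57, 4.73 and 4.60 (chr6:126771996-126772055). Its groups were separate by a narrow margin, with a difference of -0.13 (SE 0.10). Ndufv3 and Ndufa12 differed by -0.22 (SE 0.14) and -0.18 (SE 0.12) with overlapping groups, and for Ndufa12 knock-in and wild-type replicate 1 both read 5.93. For Ndufs4 and Ndufs6, both known from inherited complex I deficiency, the differences were -0.04 and -0.09, with wild-type replicate 1 as the lowest array of each. Ndufa2, Ndufa7 and Ndufa6 differed by -0.06, -0.03 and 0.00, with overlapping groups, and Ndufa7 had a 95% interval of -0.37 to 0.31.

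The part of the membrane arm next to the matrix arm was measured through 9 genes, 8 of them with the lower mean in knock-in and a median difference of -0.16 (-0.08 and 7 lower without wild-type replicate 2). Ndufc1, a small accessory subunit, had the smallest p of all members. It read 5.09, 4.97 and 5.04 in knock-in against 5.16, 5.46 and 5.27 in wild type (chr3:51209408-51209467), 5.04 ± 0.06 against 5.30 ± 0.15 (SD, n = 3 each, adjusted p = 0.468 by limma). The groups were separate, and against wild-type replicate 3 alone the difference was -0.23, close to the -0.26 over all arrays. Ndufs5, which faces the space between the mitochondrial membranes, read 6.07, 5.96 and 6.01 against 6.16, 6.35 and 6.14 (chr4:123389974-123390033). It differed by -0.20 (SE 0.10) without overlap; its probe is also listed for a second, non-coding RefSeq accession, and cross-hybridisation was not tested. Ndufa8, another subunit on that side, read 3.57, 3.63 and 3.56 against 3.65, 3.95 and 3.69 (chr2:35891871-35891930), separate by -0.18 (SE 0.11). Ndufa13, also named GRIM-19, read 7.63, 7.53 and 7.47 against 7.75, 7.98 and 7.61; knock-in replicate 1 lay above wild-type replicate 3, so the groups overlapped at a difference of -0.23 (SE 0.13).

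Ndufa10 ran against the rest. Its probe, which crosses an intron (chr1:94361039-94363996), read 3.89, 4.01 and 3.98 in knock-in against 3.82, 3.56 and 4.02 in wild type. The highest array was wild-type replicate 3 and the lowest was wild-type replicate 2, so the groups overlapped; the difference was 0.16 (SE 0.14, 95% interval -0.18 to 0.49) and -0.06 against wild-type replicate 3 alone. The other members of this region, Ndufa3, Ndufc2, Ndufa11 and the X-linked Ndufa1, differed by -0.16, -0.11, -0.07 and -0.05, and the groups overlapped in each.

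The far end of the membrane arm, built around the mitochondrially encoded pumps ND4 and ND5, was measured through 10 Ndufb genes. Of these, 10 had the lower mean in knock-in (8 with quantile normalization and 7 in the authors' deposited table), with a median difference of -0.15, and 4 lay wholly below wild type, where 12.4% of all genes did. Wild-type replicate 2 was the highest array for all 10, and without it the median was -0.05. Ndufb4 read 6.13, 6.07 and 6.09 in knock-in against 6.30, 6.57 and 6.24 in wild type (chr16:37647711-37647770), a difference of -0.27 (SE 0.12, adjusted p = 0.468 by limma). Its second probe, which overlaps the first, read 5.14, 5.04 and 4.98 against 5.28, 5.53 and 5.27, separate again with -0.31. Ndufb2 read 5.67, 5.54 and 5.59 against 5.82, 6.01 and 5.67 (chr6:39548336-39549425, across an intron), and its other probe read 4.17, 4.06 and 4.12 against 4.29, 4.55 and 4.25. Both probes of Ndufb2 separated the groups, with differences of -0.23 and -0.24, although on the brighter one knock-in replicate 1 and wild-type replicate 3 were equal to 2 decimals. Ndufb5 read 4.74, 4.63 and 4.68 against 4.87, 4.94 and 4.78 (chr3:32650097-32650156), separate by -0.18 (SE 0.10). A second probe, further along its transcript, was separate by -0.11. Ndufb3 read 5.13, 5.05 and 5.07 against 5.17, 5.37 and 5.21 (chr1:58652622-58652681), separate by -0.17 (SE 0.10). The groups overlapped for the other members here, Ndufb11 (-0.15), Ndufb9 (-0.15), Ndufb7 (-0.12), Ndufb6 (-0.08), Ndufb8 (-0.08) and Ndufb10 (-0.07).

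Ndufa4 is listed by name with complex I but is now regarded as a subunit of cytochrome c oxidase, complex IV. It read 5.62, 5.58 and 5.49 in knock-in against 5.54, 5.95 and 5.49 in wild type. Wild-type replicate 2 was alone at the top, and the difference of -0.09 (SE 0.15) was 0.05 without that array.

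**Figure D2:**
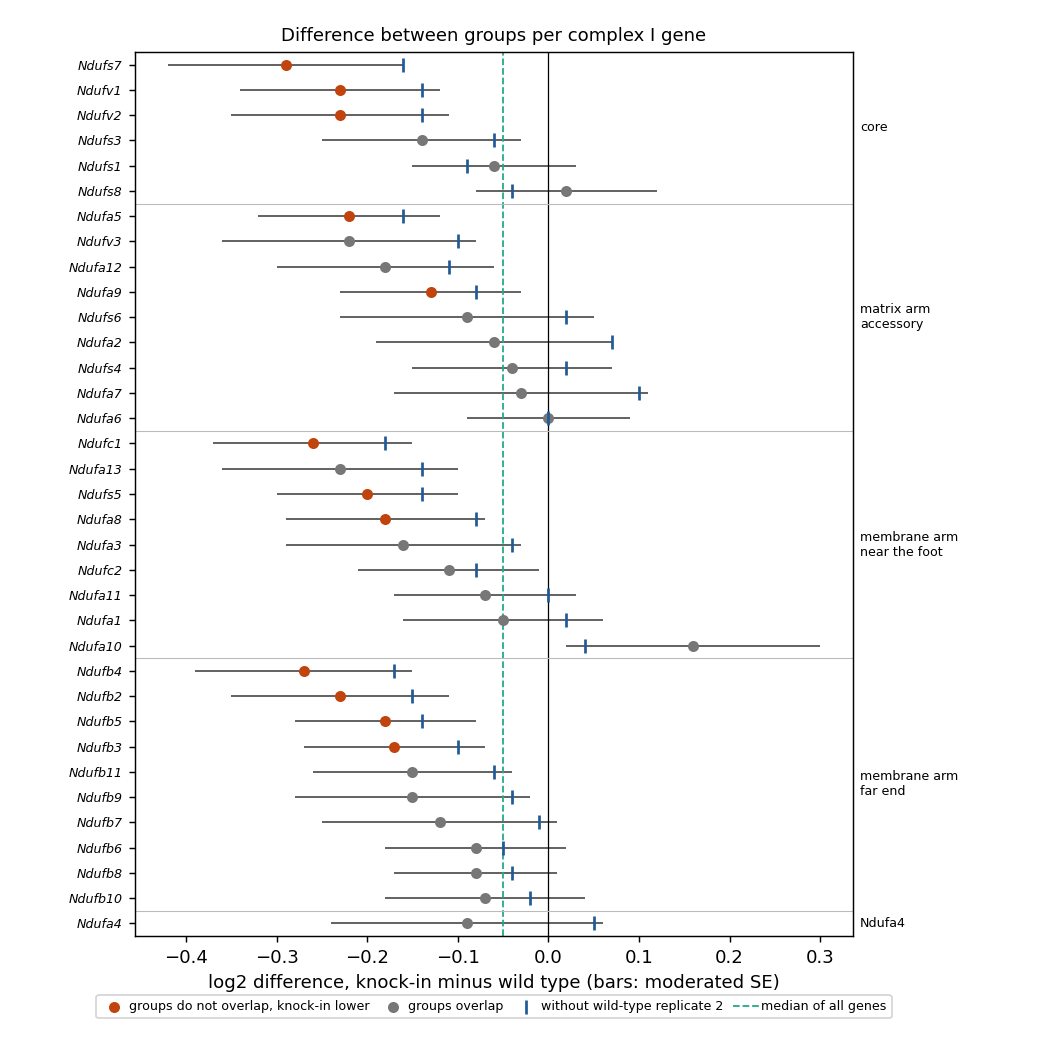
Log2 difference of each complex I gene, knock-in minus wild type, with the moderated standard error as a bar, against the median of all genes (-0.05, dashed). The 12 genes whose groups do not overlap (coloured) lie between -0.29 and -0.13, and blue ticks without wild-type replicate 2 sit closer to 0 for most genes.

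Members with several probes could be compared within the gene. The probes share the same 6 arrays and some overlap in sequence, so they are no independent check. In 7 of the 8 such genes, all kept probes had the same sign. The exception was Ndufb5, where a dim probe at the start of another transcript (chr3:32643684-32643743) read -4.11, -4.73 and -3.50 in knock-in against -4.40, -4.59 and -4.62 in wild type, overlapping, with a difference of 0.42. Over all 47 kept probes, which include the brightest probe of each member, 43 had a difference below 0 after rounding to 2 decimals. The Ndufa6 probe rounded to 0 and is not among them. Of all genes, each counted by its brightest probe, 59.1% had the lower mean in knock-in. For Ndufv3, the brightest probe is listed for both RefSeq transcripts and differed by -0.22 with overlap. A probe listed for transcript variant 1 alone read 0.41, 0.39 and 0.37 against 0.53, 0.35 and 0.41 and differed by -0.04, again with overlap. The third and dimmest probe read -2.05, -2.13 and -1.92 against -1.75, -1.81 and -1.91 and separated the groups by -0.21, although knock-in replicate 3 and wild-type replicate 3 nearly met.

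The rest of the pathway was read from lists of fixed membership. Ndufab1, the mitochondrial acyl carrier protein and a complex I subunit outside the 35, lay wholly below wild type with a difference of -0.23 (SE 0.11). The core subunits made inside mitochondria were measured through 7 probes, of which 6 had the lower mean in knock-in and 5 lay wholly below wild type, where 12.4% of all genes did, with a median of -0.32. On slide 1 alone, and with slide as a fixed block, the median was -0.13. ND3 read 7.60, 7.54 and 7.66 in knock-in against 7.99, 8.08 and 7.82 in wild type (difference -0.37, SE 0.11, limma's adjusted p = 0.413). ND5 and ND2 differed by -0.32 and -0.29, both separate, and ND1, named after its value was seen, by 0.08 with overlap. These 3 lower genes, ND3, ND5 and ND2, had an unadjusted p under 0.05, and no mitochondrially encoded gene passed after adjustment. Unlike the nuclear genes, wild-type replicates 1 and 2, the arrays of slide 2, were both high here: the median deviations were 0.21, 0.28 and 0.03 on the wild-type arrays, beside -0.18, -0.17 and -0.12 on the knock-in arrays. With quantile normalization 2 of the 7 lay wholly below, where 10.2% of all genes did, and the median was -0.18, against -0.02. In the authors' deposited table a single one of the 7 did, where 9.59% of all genes did. The median there was -0.07, against -0.01 over all genes.

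Assembly factors build the complex without staying in it. Of 19 listed, 11 had a kept probe under that name, and the median was -0.03, against -0.05 over all genes. The mean was lower in knock-in for 7 (63.6%), against 59.1% of all genes. Wholly below wild type lay 2 (18.2%), against 12.4%, and wholly above 1 (9.09%), against 7.86%. When probes were named through RefSeq, 18 were measured, with a median of -0.05, the same as over all genes. The lower mean was found for 12, where 59.2% of all genes had it. Of the 18, 6 lay wholly below, where 12.5% of all genes did, and 1 wholly above, where 7.84% did. Ndufaf1 read 2.14, 2.22 and 2.29 in knock-in against 2.38, 2.56 and 2.42 in wild type, separate by -0.24 (SE 0.10). Ndufaf4 went the other way, at 2.36, 2.24 and 2.22 against 2.16, 1.61 and 2.21, with wild-type replicate 2 far below the rest, the groups just separate, and a difference of 0.28 (SE 0.18). Among 12 regulators of mitochondrial gene expression the median was -0.04 and 0 lay wholly below, against 12.4% of all genes. Tfam, which packages and transcribes mitochondrial DNA, read 2.02, 2.01 and 1.84 against 1.78, 1.45 and 1.73. It lay wholly above wild type by 0.30 (SE 0.13, limma's adjusted p = 0.462).

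The nuclear subunits of complexes II to V were measured on the same arrays. Of 40 genes, 38 had the lower mean in knock-in, against 59.1% of all genes and 75.5% of the bright ones, and the median was -0.15. In all 16, or 40%, lay wholly below wild type, against 12.4% and 17.2%. Without wild-type replicate 2 the median was -0.07, against -0.04 over the bright genes, and 32 were lower. The shares lower there were 54.9% of all genes and 63.1% of the bright ones. Atp5a1, the catalytic-head alpha subunit of ATP synthase, read 6.29, 6.23 and 6.29 against 6.68, 6.61 and 6.48, separate by -0.32 (SE 0.10, adjusted p = 0.413 by limma). Their median deviation on wild-type replicate 2 was 0.22, beside 0.24 for complex I. How the 2 lists compared depended on the processing. With quantile normalization 4 of the 40 lay wholly below, beside 10 of the 35 of complex I. The shares there were 10.2% of all genes and 7.46% of the bright ones. In the values the authors deposited, 5 of the 40 lay wholly below, beside 4 of the 35. The shares there were 9.59% of all genes and 6.05% of the bright ones. With normexp background correction the counts were 10 of the 40 and 9 of the 35. The shares there were 18.8% of all genes and 11.2% of the bright ones. For mitochondrial ribosomal proteins, 20 of 30 (66.7%) had the lower mean in knock-in, against 59.1% of all genes. Their median was -0.06, against -0.05, and 7, or 23.3%, lay wholly below, against 12.4%. The difference between these lists and complex I was not tested, since all share the same 6 arrays.

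**Figure D3:**
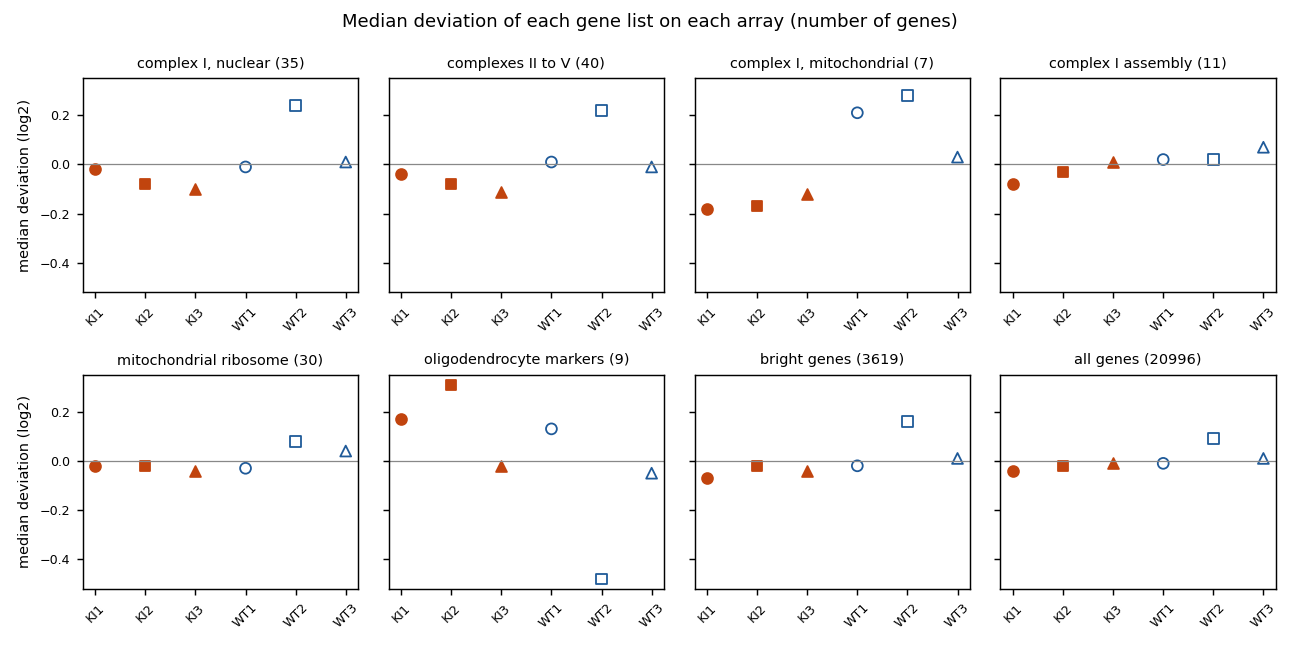
Median deviation from the 6-array mean (log2) of 8 gene lists on each array, knock-in (KI) filled and wild type (WT) open; bright genes are those at least as bright as the dimmest complex I gene. In complex I and in complexes II to V wild-type replicate 2 is on top (0.24 and 0.22), the mitochondrially encoded genes are high on 2 wild-type arrays, and oligodendrocyte markers are lowest on wild-type replicate 2 (-0.48).

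**Figure D4:**
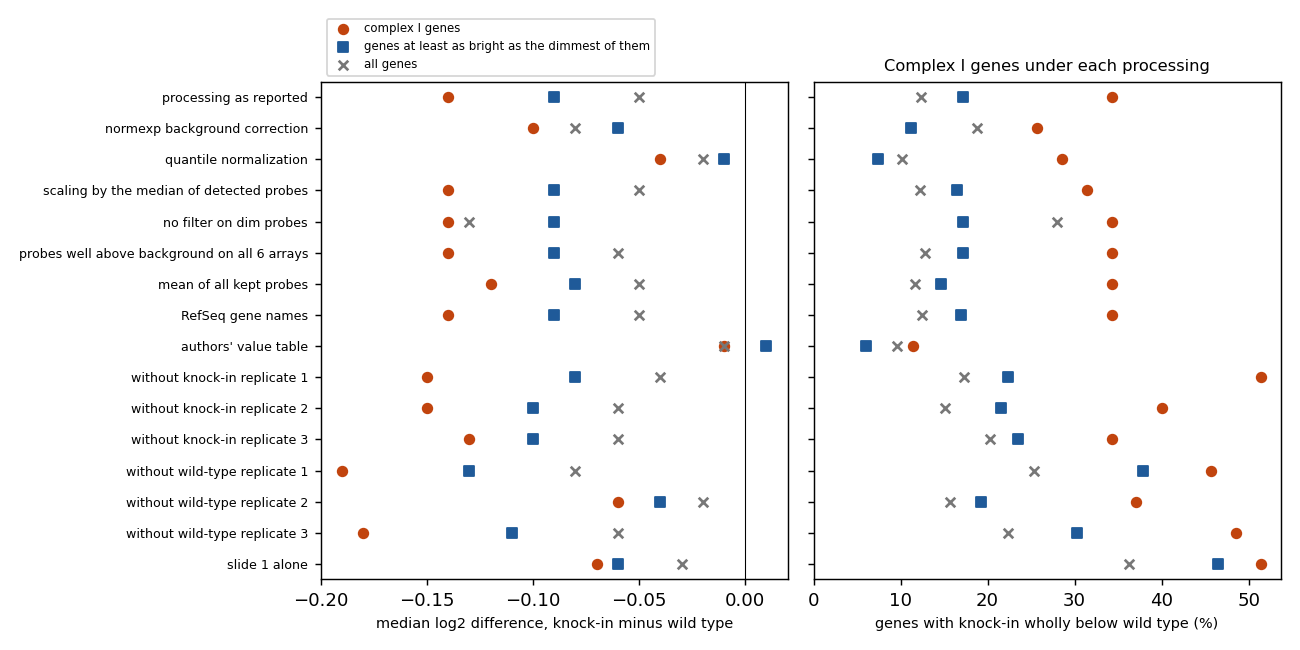
Median log2 difference (left) and percentage of genes with knock-in wholly below wild type (right) under each processing, for the 35 complex I genes, the bright genes and all genes. The complex I median lies between -0.19 and -0.01, and in the authors' value table it meets the median of all genes.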

How the data were processed

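RNA of 3 knock-in and 3 wild-type synaptosome samples was read on 1 array each. Per the file headers, Agilent Feature Extraction 10.7.3.1 deposited a linear intensity for each of 62976 spots, both raw and as a processed intensity after background subtraction and spatial detrending. The authors also deposited a table of log2 values, whose columns rank spots as the raw median intensity does and have medians of 6.55 to 6.56; the sources used here do not state their normalization.

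Processed signals of 59305 non-control spots were taken to log2, and the 75th percentile of each array was subtracted. Outlier spots were left out, spots of a probe averaged, probes well above background on at least 3 arrays kept (29318), and the brightest kept probe per gene name in the files used. Such log2 differences are relative, and a shift between bright and dim probes on an array stays in them. Groups were compared with limma 3.58.1 (R 4.3.3, two-sided) over 20996 genes with Benjamini-Hochberg adjustment at 0.05. The fit was tested on simulated data. The number of arrays limits the precision. Probe coordinates are those in the files, build mm9; promoters are from RefSeq, GRCm38.p6.

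The members and the lists were chosen with earlier results of these data known. Values on every array are given for members whose groups do not overlap, the 8 of smallest p and the 2 with the most positive difference; Ndufa13 and Ndufa4 were singled out after their values were seen. Alternatives were another background correction, normalization, scaling, filter, probe rule and gene naming, slide and replicate number as blocks, other moderation, the authors' table and leaving out each array.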

Additional observations from a re-analysis of the deposited data

How the results depend on the processing

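Across 19 alternatives the median difference of the complex I genes stayed at or below -0.01, and in the 18 of them with a test 0 members passed limma's threshold. In the authors' value table the median was -0.01 and 4 members lay wholly below wild type, against -0.14 and 12. Leaving out 1 array moved the median between -0.19 and -0.06, against -0.13 to -0.04 over the bright genes. The count of lower members moved between 27 and 34 (77.1% to 97.1%). The shares lower were 54.9% to 61.3% of all genes and 63.1% to 78.8% of the bright ones. The count wholly below moved between 12 and 18 (34.3% to 51.4%), against 15.1% to 25.3% of all genes and 19.3% to 37.9% of the bright ones. The count wholly above moved between 0 and 1, against 9.1% to 13.4% of all genes. That count was 1 on slide 1 alone too, against 26% of all genes, a setting chosen after seeing the data. Of the 35 members, 19 kept their sign under all 18 alternatives chosen at the start and 16 did not. The cause was not tested. Among these alternatives, replicate number as a block and other moderation could not change a difference. The other filters left the members' differences as they were, so these settings are no check of the signs. The differences that changed sign were, with quantile normalization, Ndufa1 0.054, Ndufa2 0.045, Ndufa4 0.0034, Ndufa6 0.056, Ndufa7 0.060, Ndufb8 0.014, Ndufb10 0.017, Ndufs1 0.048, Ndufs4 0.027 and Ndufs6 0.0074. In the authors' value table they were Ndufa1 0.056, Ndufa2 0.080, Ndufa4 0.036, Ndufa6 0.077, Ndufa7 0.058, Ndufa13 0.0096, Ndufb9 0.045, Ndufb10 0.041, Ndufb11 0.010, Ndufs1 0.064 and Ndufs6 0.011. With slide as a fixed block, which compares knock-in with wild-type replicate 3 alone, they were Ndufa1 0.027, Ndufa2 0.033, Ndufa4 0.078, Ndufa7 0.030, Ndufa10 -0.061, Ndufb8 0.0025 and Ndufs8 -0.012. Without wild-type replicate 2 they were Ndufa1 0.018, Ndufa2 0.067, Ndufa4 0.051, Ndufa6 0.0036, Ndufa7 0.10, Ndufs4 0.022, Ndufs6 0.023 and Ndufs8 -0.041. For members that changed sign when 1 array was left out, the lowest difference was Ndufa1 -0.11, Ndufa2 -0.13, Ndufa4 -0.18, Ndufa6 -0.034, Ndufa7 -0.13, Ndufs4 -0.10, Ndufs6 -0.20 and Ndufs8 -0.041, and the highest for Ndufs8 was 0.062. Ndufa6 was 0.034 with normexp, 0.00061 and 0.026 without knock-in replicate 2 or 3, and 0.020 without wild-type replicate 3. Ndufa2 was 0.0047 with normexp, Ndufs8 -0.0021 without knock-in replicate 1, and Ndufb5 0.044 with the mean of all its kept probes. With replicate number as a block (the replicate block), 0 members passed. The median of -0.14 could not change there, since each number holds 1 array of each group. Same-numbered samples correlated at 0.398, -0.0239 and 0.252 in their deviations from group means. Samples numbered 1 and 3 correlated best with their own number, and those numbered 2 did not. These values do not settle whether the numbers pair the samples. All members were well above background on all 6 arrays.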
